A study of Mus musculus with 2 samples.

Results

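Chromatin accessibility around 9 microRNA genes of heart muscle and blood vessels was examined in mouse heart: Mir1a-1, Mir1a-2, Mir133a-1, Mir133a-2, Mir208a, Mir208b, Mir499, Mir126a and Mir143. They were taken by name from the GENCODE M21 annotation of mm10, out of 2202 genes of the type miRNA on chromosomes 1 to 19, X and Y. Every DNase-seq peak and footprint within 20 kb of either side of each annotated precursor was used. Hearts came from male B6CASTF1/J mice aged 14 days, F1 animals with a C57BL/6J and a CAST/EiJ parent, and no treatment or engineered allele is named. There was 1 group with 2 biological replicates and no contrast, so that no test between conditions was possible, and differences between loci are given as descriptions. Replicate 1 is labelled as 3 males. The number of animals in replicate 2, and whether hearts were pooled, are not stated in the labels. Both samples carry the same donor identifier, and each SD printed here (n = 2) is the spread of these samples, which may be technical. DNase-seq maps the sites that the nuclease DNase I cuts in nuclei, where DNA is not packed into nucleosomes. It does not measure the microRNAs.

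A microRNA is cut from the hairpin of a longer primary transcript, and its seed, bases 2 to 8 of the mature strand, selects the messenger RNAs that it represses. In heart muscle, miR-1 and miR-133a are made together from a pair of clusters that arose by duplication, and both act on muscle growth and differentiation. miR-208a, miR-208b and miR-499 lie in introns of the myosin heavy chain genes Myh6, Myh7 and Myh7b, and act in turn on the balance of fast and slow myosins. miR-126 comes from the endothelial gene Egfl7 and acts in vessel growth and integrity. miR-143 is co-transcribed with miR-145 in smooth muscle, where the pair acts on the contractile state.

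Mature sequences found in the RefSeq table (GRCm38.p6) covered 5 of the 9 genes. A single strand of each is shown, to set the seeds side by side, with the seed in capitals, 5′ to 3′. The strand of Mir1a-1 is the 5p strand, whose seed is not that of miR-1a-3p, the strand for which the gene is known.
mmu-miR-208a-3p: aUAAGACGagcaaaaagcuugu
mmu-miR-208b-3p: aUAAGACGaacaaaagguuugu
mmu-miR-499-5p: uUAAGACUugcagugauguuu
mmu-miR-126a-3p: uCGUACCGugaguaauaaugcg
mmu-miR-1a-1-5p: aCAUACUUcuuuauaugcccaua
The 2 strands from Mir208a and Mir208b shared all 7 seed bases and 19 of 22 positions, with the differences G10A, A16G and C18U, counted from 1 at the 5′ end with the base of miR-208a-3p first. Against miR-208a-3p, miR-499-5p shared 6 of 7 seed bases and 12 of 21 positions, with the seed difference G8U. miR-126a-3p shared 2 of 7 seed bases with miR-208a-3p. Near-identical seeds thus come from introns of 3 myosin genes on chromosomes 14 and 2.

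Neither the unit of the deposited peak signal nor the number of reads is given in the sources used here, so that the depth is unknown. Replicate 1 had 143122 peaks and replicate 2 had 125118. Peaks of both replicates that touched were merged into regions, and a region with a peak in each replicate is called shared; of 158036 regions, 104208 were shared. Of the lists of marker genes examined, promoters had peaks in both replicates for 10 of 10 cardiomyocyte genes, 7 of 7 endothelial genes, 7 of 7 smooth muscle and pericyte genes and 5 of 5 fibroblast genes. They did for 0 of 5 liver, 0 of 4 lung, 0 of 4 erythroid, 1 of 4 leukocyte and 3 of 7 skeletal muscle genes, and for 3 of 4 neuronal genes. Open promoters are thus no list of the cell types present, and in bulk tissue a larger share of a cell type and a more open site per cell cannot be told apart.

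All 9 genes had a shared region within 20 kb, against 70.0% of all miRNA genes. The precursor itself was overlapped by a shared region for 1 of 9, Mir133a-2, against 6.99% of all miRNA genes. The number of shared regions ran from 2 at Mir208b to 16 at Mir143, with a median of 6, against a median of 2 over all miRNA genes and of 3 over the 969 that lie inside a protein-coding gene on the same strand. Hairpins that share a locus were counted singly on both sides. Among all miRNA genes they include a large cluster inside Sfmbt2 with no shared region near it. Such clusters weigh on these medians and on the percentages of miRNA genes given below. In all, the windows held 78 regions, of which 53 were shared, 20 were found in replicate 1 alone and 5 in replicate 2 alone. The share in both replicates, 67.9%, was close to the 65.9% of all regions. Shared regions near the 9 genes had a median mean signal of 1.87, from 0.599 to 10.9, against 0.991 for all shared regions. Regions in replicate 1 alone had a median signal of 0.656, against 0.376 for all such regions. Those in replicate 2 alone had 0.651, against 0.328. Of the 53, 9 touched the stretch within 1 kb of a protein-coding start, against 28060 of all 104208 shared regions. By the position of their middle, 22 of the others were intergenic, 19 intronic and 3 exonic. The same split over all shared regions is not given here.

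Within 20 kb, the order of the genes by highest signal was Mir143, Mir499, Mir126a, the pair Mir1a-1 and Mir133a-2, Mir208a, Mir208b and the pair Mir1a-2 and Mir133a-1. The highest peak near Mir143 reached 12.8 in replicate 1 and 9.0 in replicate 2, a mean of 10.9 ± 2.67 (SD, n = 2). Near Mir499 the values were 6.65 and 4.97, 5.81 ± 1.19. Mir143 stood apart from all other genes in both replicates. Mir499 came next in each replicate, but its 4.97 in replicate 2 was close to the 4.94 of Mir126a in replicate 1. Mir126a followed with 4.94 and 4.14, 4.54 ± 0.566. The peak that gave this value lay at the start of the neighbouring gene Agpat2; away from protein-coding starts, the highest mean signal near Mir126a was 2.43. Mir1a-1 and Mir133a-2 shared their highest peak, 3.64 and 2.39, 3.02 ± 0.880, and Mir208a was at 3.60 and 2.39, 3.00 ± 0.859. Both values of Mir126a were above those of this pair and of Mir208a, whose ranges covered each other. Mir208b had 2.43 and 1.82, 2.12 ± 0.428, and Mir1a-2 and Mir133a-1 had 2.07 and 1.36, 1.72 ± 0.502. Mir208b overlapped both of its neighbours in this order in range. The order depends on the window. Within 50 kb the mean was 22.4 for Mir499, 16.1 for Mir208b and 15.3 for Mir126a, all above the 10.9 of Mir143, which did not change. Away from protein-coding starts and within 20 kb, Mir143 lay above 98.0% of all miRNA genes, Mir499 above 92.2%, and the remaining genes above 69.5% to 81.5%.

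**Figure D1:**
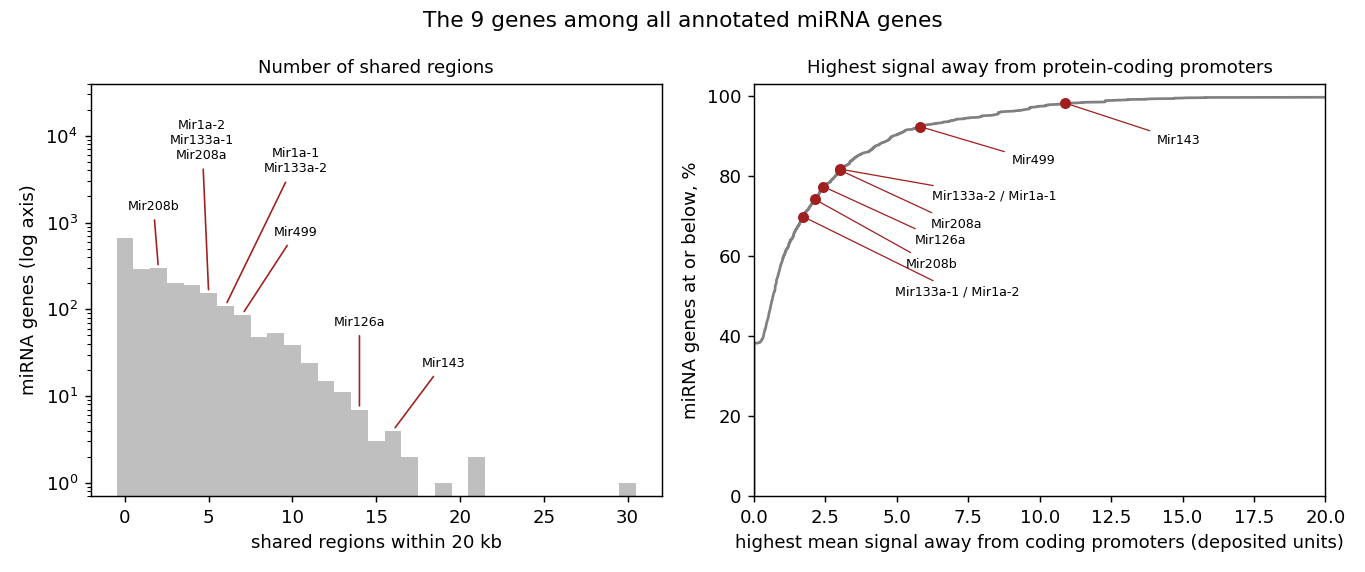
Left, the number of shared regions within 20 kb of each of 2202 miRNA genes (bars, log axis), with the 9 genes marked; right, the cumulative share of miRNA genes by the highest mean signal away from protein-coding starts, in deposited units, cut off at 20. Mir126a with 14 and Mir143 with 16 regions lie in the thin upper end on the left, and Mir143 and Mir499 lie highest on the right.

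Mir1a-1 (chr2:180389048-180389124) and Mir133a-2 (chr2:180398379-180398482) lie on the plus strand, 9254 bp apart, in sequence that GENCODE M21 leaves intergenic. The nearest annotated start is that of B230312C02Rik, a long intergenic non-coding RNA on the minus strand. The strongest region of the locus (chr2:180385361-180385720) lay 3327 bp upstream of Mir1a-1 and 165 bp from that start, at 3.64 and 2.39, in an intron of the non-coding RNA and with 5 and 7 footprints in replicates 1 and 2. No other shared region lay upstream of Mir1a-1, and 1 lay between the precursors, at 1.26 and 0.961, 4076 bp past Mir1a-1. The remaining 4 were gathered at Mir133a-2. The first of them (chr2:180398421-180398660) covered the 3′ part of the hairpin, at 1.23 in replicate 1 and 1.03 in replicate 2. It was followed by regions 395, 1458 and 1798 bp downstream. Replicate 2 had a further peak of 0.782 that ended 308 bp upstream of Mir133a-2 and had no counterpart in replicate 1. Regions were thus densest over the distal hairpin, while the highest signal lay in front of the proximal one.

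The list of bases with a false discovery rate under 0.05 also marked the Mir133a-2 hairpin. It was made from the same alignments as the peaks, and so is no independent evidence. In replicate 2 it covered more of that hairpin than the peak, which begins at 180398421. At Mir133a-2, 39 of 104 bases were listed in replicate 1, with a lowest rate of 0.0152, and 104 of 104 in replicate 2, with a lowest rate of 0.000428. At the other 8 precursors no base was listed in either replicate.

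The second strongest region of this locus (chr2:180399941-180400160) lay 1458 bp downstream of Mir133a-2, at 2.71 in replicate 1 and 1.99 in replicate 2. Its sequence is shown because it is the open site closest to the miR-133a hairpin of this locus with footprints that overlapped between the replicates. The stretch covered by the strongest peak of both replicates (mm10, chr2:180399961-180400140, plus strand) follows, with bases inside a footprint of both replicates in capitals.
Downstream of Mir133a-2: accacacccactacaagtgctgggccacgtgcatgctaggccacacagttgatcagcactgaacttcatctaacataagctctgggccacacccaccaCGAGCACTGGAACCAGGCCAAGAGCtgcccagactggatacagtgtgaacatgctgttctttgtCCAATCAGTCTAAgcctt
Of its 180 bases, 38 were protected in both replicates, in 2 runs.

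Mir208a (chr14:54949060-54949142, minus strand) lies in an intron of Myh6, the alpha myosin heavy chain of the mature mouse heart. Mir208b (chr14:54975700-54975776, minus strand) lies 26557 bp upstream, in an intron of Myh7, the beta chain that dominates before birth. Mir208a had 5 shared regions and 6 in replicate 1 alone, and Mir208b had 2 shared and 3 in replicate 1 alone. All regions near Mir208b were downstream of it, and the 20 kb upstream, which include the 5′ start of Myh7, held no peak in either replicate. At the promoter of Myh6 the signal was 1.88 and 1.12, and at that of Myh7 there was no peak. Between them, the start of Mhrt, an antisense RNA of the myosin locus, had 2.43 and 1.82, the highest signal near Mir208b. Both of these regions fell within 20 kb of both hairpins. The nearest shared region to Mir208a was 8859 bp downstream, past the end of Myh6. Between that region and the promoter of Myh6, 4 regions were found in replicate 1 alone, at 0.404 to 0.965, and none in replicate 2.

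The strongest region near Mir208a (chr14:54939441-54939680) lay 9379 bp downstream of it, beyond the 3′ end of Myh6, at 3.60 in replicate 1 and 2.39 in replicate 2. It lay past Cmtm5, whose promoter was at 2.48 and 1.47, and 675 bp from the start of a predicted gene, Gm49130. It had 4 and 2 footprints, of which 2 matched in each replicate. All 5 shared regions at this locus were higher in replicate 1.

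Mir499 (chr2:155622880-155622958, plus strand) lies in an intron of Myh7b, a slow myosin gene. It had 7 shared regions, 4 upstream and 3 downstream, and none over the hairpin. The strongest (chr2:155619921-155620100) lay 2779 bp upstream in an intron of Myh7b, 8709 bp from the nearest annotated start, at 6.65 in replicate 1 and 4.97 in replicate 2. It was above 97.3% of all shared regions away from protein-coding starts. The next (chr2:155627121-155627300) lay 4162 bp downstream, at 3.06 and 2.60. Both were far above the region at the 5′ start of Myh7b, which had 0.979 and 0.824, a signal above that of 10.1% of the protein-coding promoters with a peak. The hairpin was thus flanked by an intronic site on each side with a higher signal than the 5′ start of its host. With promoters of 2 kb either side of a start, which take in the downstream site, Myh7b had a mean of 2.83, and with the smaller peak set 0.489. The start of the neighbouring gene Trpc4ap, outside the window, had 16.7 and 12.4.

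Sequences of the sites that flank Mir499, and of the strongest one near Mir208a, are shown because each held a footprint in both replicates over the same letters, CCCTNGTGG, which are part of the known binding motif of CTCF, a protein that bounds chromatin loops. Each is the stretch covered by the strongest peak of both replicates (mm10, plus strand), with bases in a footprint of both replicates in capitals.
Upstream of Mir499, chr2:155619941-155620100: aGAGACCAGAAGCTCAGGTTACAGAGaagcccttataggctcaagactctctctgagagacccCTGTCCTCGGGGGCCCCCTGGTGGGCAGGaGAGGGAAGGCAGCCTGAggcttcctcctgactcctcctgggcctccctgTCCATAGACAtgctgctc
Downstream of Mir499, chr2:155627121-155627300: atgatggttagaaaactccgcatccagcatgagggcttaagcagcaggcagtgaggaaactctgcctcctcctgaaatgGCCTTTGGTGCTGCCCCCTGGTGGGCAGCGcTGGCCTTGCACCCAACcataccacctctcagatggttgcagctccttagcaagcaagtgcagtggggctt
Downstream of Mir208a, chr14:54939461-54939680: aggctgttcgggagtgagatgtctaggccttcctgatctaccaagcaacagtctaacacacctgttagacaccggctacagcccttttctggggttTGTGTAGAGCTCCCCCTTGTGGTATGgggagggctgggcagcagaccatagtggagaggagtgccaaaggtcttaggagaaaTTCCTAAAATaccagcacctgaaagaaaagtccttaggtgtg
The matches read in the same direction at both sites around Mir499, at 155620019 to 155620027 and 155627215 to 155627223 on the plus strand. The protected bases numbered 81 of 160 upstream of Mir499, 46 of 180 downstream of it and 36 of 220 near Mir208a.

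Mir126a (chr2:26591357-26591429, plus strand) overlaps an annotated exon of Egfl7, with an Egfl7 start 5 bp away, and Mir126b on the other strand. It had 14 shared regions, more than 99.1% of miRNA genes, with 8 upstream and 6 downstream, and a further 9 in replicate 1 alone and 1 in replicate 2 alone. None touched the hairpin or the Egfl7 start beside it. Between 1651 and 2056 bp upstream of the hairpin, replicate 1 had 3 peaks of 0.270 to 0.284, the weakest near any of the 9 genes, and replicate 2 had none. The nearest shared region was 2671 bp downstream, in an intron of Agpat2, at 2.86 and 1.92. The strongest upstream region (chr2:26583741-26583980) lay at an annotated start of Egfl7, 7376 bp from the hairpin, at 4.90 in replicate 1 and 3.82 in replicate 2. Further upstream, 5 intergenic shared regions ran from 1.33 to 2.27 in mean signal. A region 4336 bp upstream (chr2:26586821-26587020), which lies in introns of Egfl7 and of the overlapping Gm20532, was at 2.42 in replicate 1 and 3.18 in replicate 2. It was the one shared region of this locus that was higher in replicate 2.

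These last 2 regions are shown because they had the highest mean signals upstream of Mir126a, and lie at or within 132 bp of alternative starts of Egfl7. Each is again the stretch covered in both replicates (mm10, plus strand), with bases in a footprint of both in capitals.
At an Egfl7 start, chr2:26583781-26583980: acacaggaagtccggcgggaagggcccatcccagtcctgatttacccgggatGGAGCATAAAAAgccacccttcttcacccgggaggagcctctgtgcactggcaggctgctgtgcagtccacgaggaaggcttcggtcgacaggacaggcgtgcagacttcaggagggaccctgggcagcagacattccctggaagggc
Nearer to Mir126a, chr2:26586821-26587020: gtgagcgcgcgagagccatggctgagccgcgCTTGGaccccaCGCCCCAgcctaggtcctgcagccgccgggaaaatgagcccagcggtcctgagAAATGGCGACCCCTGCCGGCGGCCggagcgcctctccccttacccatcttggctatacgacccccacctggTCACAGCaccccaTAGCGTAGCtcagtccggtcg
Protected bases made up 12 of 200 in the first and 52 of 200 in the second, and the share of G and C was 62.0% and 68.0%.

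Mir1a-2 (chr18:10785481-10785552) and Mir133a-1 (chr18:10782909-10782976) lie on the minus strand, 2504 bp apart, in introns of the host RNA Mir133a-1hg and, on the opposite strand, of Mib1, a ubiquitin ligase of Notch signalling. The 5 regions in their windows were all shared, and all lay between 4963 bp upstream of Mir133a-1 and 828 bp downstream of it. The strongest (chr18:10787581-10787780) lay 2028 bp upstream of Mir1a-2, at 2.07 in replicate 1 and 1.36 in replicate 2. The region between the hairpins, 1080 bp past Mir1a-2, was at 1.65 and 1.31. The other 3 ran from 0.599 to 0.885 in mean signal, and 1 of them, at 0.738 and 0.460, lay 498 bp from the start of Mir133a-1hg. The start of Mib1, outside the windows, was at 14.2 and 13.2. The 2 strongest were above 77.9% and 73.5% of all shared regions away from protein-coding starts. The cluster thus had a compact group of sites next to the hairpins, and both values of its strongest site were below those of the site in front of Mir1a-1 in the cluster on chromosome 2.

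Mir143 (chr18:61649196-61649258, minus strand) lies between the long non-coding RNA Carmn, which begins upstream of it, and Bvht, a non-coding RNA on the other strand. It had 16 shared regions, more than 99.5% of miRNA genes, with 6 upstream and 10 downstream, and 2 in replicate 1 alone. The strongest (chr18:61643781-61643980) lay 5215 bp downstream in an intron of Bvht, at 12.8 and 9.0, above 99.5% of all shared regions away from protein-coding starts. The next (chr18:61638121-61638300), 10895 bp downstream and 1242 bp before the start of Bvht, was at 11.6 in replicate 1 and 8.53 in replicate 2. These were the 2 highest signals near any of the 9 genes. A region 17202 bp upstream (chr18:61666461-61666640), 924 bp from the start of Carmn, was at 6.33 and 5.32, and another in an exon of Bvht, 1755 bp downstream of Mir143, was at 6.15 and 4.39. The nearest region (chr18:61647861-61648100), 1095 bp downstream, overlapped the precursor of Mir145a, at 2.26 and 1.93. In the clusters of Mir133a-2 and Mir143, the shared region on a hairpin was thus on the downstream hairpin of the pair. This is no rule: of the pair Mir199a-2 and Mir214, only the upstream hairpin, Mir199a-2, was overlapped.

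**Figure D2:**
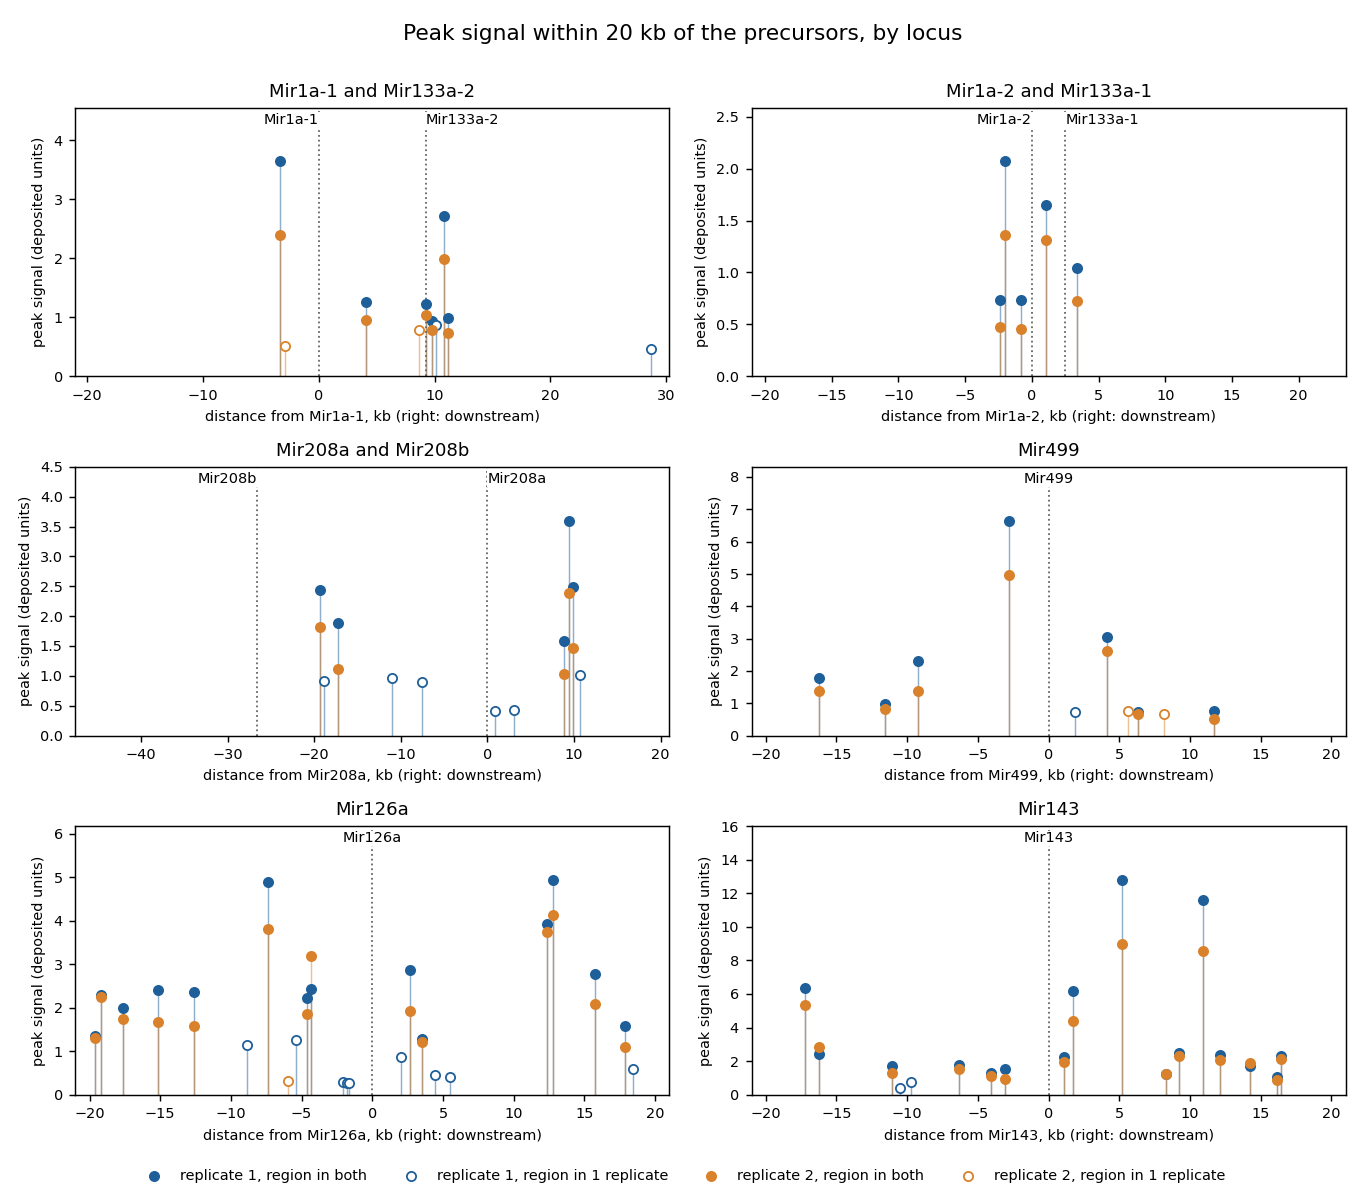
Peak signal in deposited units (vertical axis) against the distance of each region from the first precursor named (horizontal axis, kb, right is downstream in its direction of transcription), for the 6 loci; filled points are regions found in both replicates, open points regions found in 1, and dotted lines mark the precursors. Replicate 1 is above replicate 2 at 49 of the 53 shared regions, and the vertical scale differs between panels.

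Protein-coding genes that hold a hairpin on their own strand are Myh6, Myh7, Myh7b, Egfl7 and Gm20532, and Mib1 holds Mir1a-2 and Mir133a-1 on its opposite strand. A peak within 1 kb of an annotated start was found in both replicates for 4 of the 5 on the same strand, against 68.8% of all protein-coding genes, Myh7 being the exception. Their signals were 4.36 ± 0.764 (SD, n = 2) for Egfl7, 2.80 ± 0.539 for Gm20532, 1.5 ± 0.536 for Myh6 and 0.901 ± 0.110 for Myh7b, and Mib1 had 13.7 ± 0.679. Among the non-coding neighbours, Carmn had 5.82 ± 0.713, B230312C02Rik 3.02 ± 0.880, Bvht 2.37 ± 0.128, Mhrt 2.12 ± 0.428 and Mir133a-1hg 0.599 ± 0.197. Some of these depend on the width taken as the promoter: within 500 bp of a start Carmn had 2.62, below B230312C02Rik, and Mir133a-1hg 0.369, and within 2 kb Bvht had 10.1 and Mir133a-1hg 1.72.

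Footprints are short stretches inside open sites that DNase I cuts less, as happens where a protein covers the DNA. The windows held 186 in replicate 1 and 161 in replicate 2, with a median length of 10 bp in each. Of these, 48.9% in replicate 1 and 57.1% in replicate 2 overlapped a footprint of the other replicate, against 56.2% and 59.8% of all footprints. Mir126a had the most, 63 and 53, followed by Mir143 with 52 and 45. Mir208a had 26 and 20, and Mir1a-1 had 16 and 21. Mir1a-2 and Mir133a-1, whose windows hold the same footprints, had the fewest, 9 and 4. Near Mir143, 37 of the 52 footprints in replicate 1 were matched in replicate 2, and near Mir208a 7 of 26. Of the 53 shared regions, 47 touched a footprint in each replicate. The same share over all shared regions is not given here, so that this count cannot be read as a trait of these loci.

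Consensus sequences of heart and vessel factors were searched on both strands in the middle 200 bp of the 53 shared regions, and no motif's letters contain those of another. GATAA, read by GATA factors, was in 17.0% of the regions against 15.8% of all shared regions. The E-box CAGCTG was in 17.0% against 21.9%, AAGTG, read by NKX2-5, in 32.1% against 36.1%, and the T-box sequence AGGTGT in 3.77% against 7.44%. The TEAD sequence GGAATG was in 9.43% against 11.9%, the ETS sequence CCGGAA in 3.77% against 7.59%, and TGANTCA of AP-1 in 7.55% against 7.54%. All of these shares were near or below the background. The MEF2 consensus was in 0 of 53 against 2.05%, and the CArG box, read by serum response factor, in 1, in an intron of Carmn, against 0.897%. A match is a description of the letters, and its absence from these windows says nothing of the factor.

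By locus, AAGTG was in 10 of 23 regions near the heart muscle genes and 7 of 30 near Mir126a and Mir143, and CAGCTG in 6 of 23 and 3 of 30. In the other direction, GATAA was in 3 of 23 and 6 of 30, GGAATG in 1 of 23 and 4 of 30, TGANTCA in 0 of 23 and 4 of 30, and CCGGAA in 0 of 23 and 2 of 30. AGGTGT was in 1 of each. The counts are small and were not tested.

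CCCTNGTGG, searched after the sequences had been seen, was in 4 of the 53 regions, 7.55% against 2.88% of all shared regions. Besides the sites on either side of Mir499 and the one past Mir208a, it was in the Bvht exon downstream of Mir143. In all 4 the match lay inside a footprint of both replicates. Over all regions, a match was counted if it shared any base with a footprint of each replicate. Longer motifs meet this rule more easily. By it, 67.3% of the 3002 shared regions with these letters had a match that overlapped footprints of both replicates. For the other motifs the share over all regions, by the same rule, was 7.83% to 28.2%. Of the regions near the 9 genes, 4 of 17 with AAGTG, 2 of 9 with CAGCTG and 0 of 9 with GATAA had such an overlapping match.

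Replicate 1 gave the higher signal at 49 of the 53 shared regions, as at 80.8% of all shared regions. The ratio differed by locus. At the 4 loci of heart muscle genes, the log2 of replicate 1 over replicate 2 had a median of 0.45 over 23 shared regions, from 0.14 to 0.75, and 18 lay above the median of all shared regions, 0.31. At the loci of Mir126a and Mir143, it was 0.24 over 30 shared regions, from -0.40 to 0.72, and 11 lay above that median. All 4 regions that were higher in replicate 2 were at these vessel loci. The locus of Mir208a and Mir208b had the highest median, 0.62, and Mir143 the lowest, 0.23. Within 10 kb of marker genes, the median was 0.43 for the cardiomyocyte list, 0.28 for the endothelial list and 0.33 for smooth muscle and pericytes. The other lists ran from 0.27 for lung to 0.37 for erythroid genes, though neither of these 2 had a promoter open in both replicates. Over all shared regions the median was 0.20 at protein-coding promoters and 0.35 elsewhere. With 1 library per replicate the difference between loci could not be tested, and the part of the cell makeup of the 2 samples in it was not tested.

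**Figure D3:**
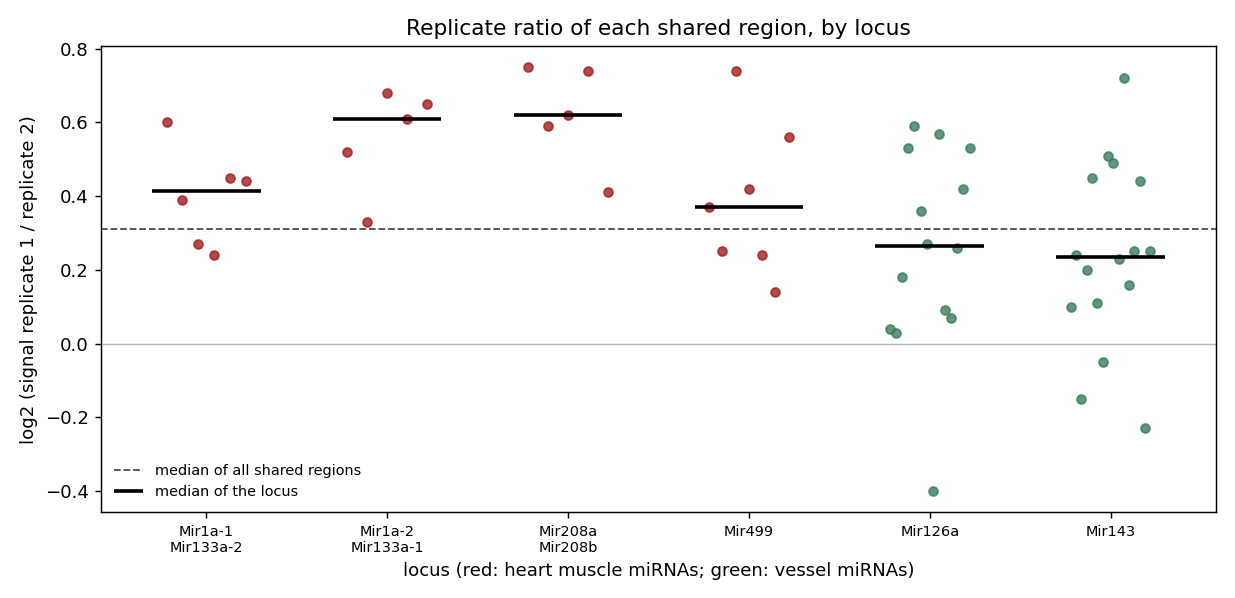
Log2 ratio of the signal in replicate 1 to that in replicate 2 (vertical axis) for each of the 53 shared regions, by locus (horizontal axis; red, heart muscle genes; green, Mir126a and Mir143); black bars are locus medians and the dashed line is the median of all shared regions, 0.31. All points of the 4 muscle loci are above 0, and the 4 points below 0 are at Mir126a and Mir143.

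For comparison, a list of other microRNA genes of muscle and vessels had 29 genes in the annotation, of which 26 had a shared region, with a median of 4 regions and a median highest signal of 3.08. This list is not independent of the 9 genes. It holds Mir145a and Mir126b, which have the same counts and highest signals as their neighbours Mir143 and Mir126a. Clustered genes were also counted singly, such as Mir23a, Mir27a and Mir24-2 with 12 regions each. A list of microRNA genes best known from other tissues had 29, of which 22 had a shared region, with a median of 2 regions and 2.06. Of all miRNA genes, 70.0% had a shared region. Away from protein-coding starts the medians were 2.92 and 1.39, against 3.00 for the 9 genes and 0.667 for all miRNA genes. The skeletal muscle pair Mir133b and Mir206, relatives of the miR-133a and miR-1 genes, had 1 shared region, at 0.468 in replicate 1 and 0.286 in replicate 2. Every gene of the Mir1a and Mir133a clusters in heart had at least 5. The gene Mir133c, which is in neither list, also had 5, with a highest mean signal of 0.772.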

How the data were processed

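For each replicate of mouse heart, a larger and a smaller peak set, footprints and per-base false discovery rates were used, all made by the authors from that replicate's own filtered alignment on mm10 with no pooling, per the file headers and the labels. The deposited peak signal is in a unit that, like callers, thresholds, read totals and the treatment of CAST/EiJ reads on the C57BL/6J reference, is not given in the sources used here. Deposited values below 1 fell on whole steps (tolerance 0.05 of a step) of 0.00709 for replicate 1 and 0.00597 for replicate 2; the weakest peak near the 9 genes was 38 and 52 such steps. The deposited false discovery rates (p-value or q-value scale) list bases under 0.05, covering 1.61% and 1.48% of the genome. The deposited footprints (other: positions with a constant score of 0.01) were used as intervals.

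With Python 3.11.15, pandas 2.3.3 and pysam 0.24.0, touching peaks of the larger sets were merged into regions, shared where each replicate had a peak; a region's signal is the highest of its peaks. Distances are from the nearest edge of the GENCODE M21 precursor. Promoters reach 1 kb either side of an annotated start. Sequences came from GRCm38.p6. Region, window and motif counting was checked on simulated data, where 100% of 2000 regions were recovered. All 9 genes are named, with the regions nearest to and between hairpins the 3 strongest per locus, and up to 3 genes at each end of the comparison lists; other regions were added as the text required. The 9 genes, lists and motifs were chosen with earlier results of these data known. No test was run. Alternatives were window, peak set, signal, coverage, base list and single replicates.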

Additional observations from a re-analysis of the deposited data

How the results depend on the processing

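All 9 genes had a shared region under each of the 8 alternatives run, while the share over all miRNA genes ran from 56.9% (upper 50% of peaks by signal) to 80.7% (50 kb). Narrowing the window to 10 kb gave 33 shared regions and 105 footprints (mean of the replicates, 173.5 at 20 kb). Widening it to 50 kb gave 94 shared regions, a median of 11 per gene, 312.5 footprints and a median highest signal of 3.98. With the smaller deposited peak set the median per gene was 3, and 0 precursors were overlapped, since the region at Mir133a-2 is in the smaller set of replicate 2 alone; with the upper 50% of peaks by signal the overlap was kept. Counting footprints matched in the other replicate left 91.5. With a single replicate, the shared regions became 58 to 73 peak regions, the median per gene was 8 in each, footprints were 161 to 186 and the median highest signal was 2.39 to 3.64. Of the values of single genes, the mean of the highest signals near Mir126a was 2.55 without peaks at protein-coding starts, and at 50 kb 4 of 9 moved, all higher: Mir499 to 22.4, Mir208b to 16.1, Mir126a to 15.3 and Mir1a-1 to 3.98. Promoter values moved for 4 of 9 genes at 2 kb (all higher), 2 at 500 bp and 2 with the smaller set (all lower). Shares of footprints with a motif, taken with 10 bp either side, moved for 4 of 10 without flanks, all lower. As means of the replicates, AAGTG went from 6.60% to 2.23% and CAGCTG from 3.83% to 1.78%. GATAA went from 0.848% to 0.269% and CCGGAA from 0.579% to 0.269%. With only footprints that touch a peak, 2 of 10 moved, all higher. Added after seeing the data, the median log2 ratio of the replicates ran from 0.43 to 0.52 at the muscle loci and from 0.24 to 0.25 at the vessel loci, under the smaller peak set, a 10 kb window, regions away from protein-coding starts and, for muscle, without Mir208a and Mir208b. The limits are 2 libraries, an unknown depth and windows that neighbouring hairpins share. No paired analysis was possible because there is 1 group.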

Other observations

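Among the other microRNA genes of muscle and vessels, the highest signals within 20 kb were near Mir26a-2, at 29.5 in replicate 1 and 22.7 in replicate 2, near Mir22, at 21.7 and 15.8, and near Mir30a, at 15.5 and 14.6. The first of these regions lay 57 bp from the start of its host Ctdsp2 and the next at the start of the host RNA Mir22hg. No shared region was found near Mir145b, Mir221 and Mir222. Among those best known from other tissues, Mir7b had 20.7 and 16.4, in a region 750 bp from the start of Fem1a, and Mir192 and Mir194-2 had a mean of 18.1 ± 0.188 (SD, n = 2) at the start of Ehd1. The liver gene Mir122, the pancreatic genes Mir216a and Mir217, the epithelial cluster of Mir200a, Mir200b and Mir429, and the myeloid gene Mir223 had no shared region in their windows. Others of this list did: Mir141 and Mir200c had 5 each, Mir142 had 7, Mir150 had 9 and Mir155 had 2. In all, 22 of its 29 genes had a shared region, against 70.0% of all miRNA genes. The absences are thus no trait of the list. Of precursors, 5 of 29 were overlapped by a shared region in the muscle and vessel list and 0 of 29 in the other, against 6.99% of all miRNA genes. The 5 include Mir145a, whose overlapping region lies in the window of Mir143.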
